A study of Mus musculus with 5 samples.

Results

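Collagen genes encode the chains of the collagens, the main fibrous and sheet-forming proteins of the extracellular matrix. They were taken as every gene symbol made of Col, a number, the letter a and a number, which gave 44 of the 24421 symbols in the count files. Col4a3bp, which encodes a ceramide transfer protein, does not match this pattern and was left out. Of the 44 genes, 32 had enough counts to be tested, a gene being left out when more than 2 mice had fewer than 10 counts, and 12 did not. The comparison asks whether transcripts of these genes differ between kidneys with and without Fnip1, a binding partner of Folliculin, the product of the gene mutated in Birt-Hogg-Dubé syndrome.

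Kidney cortex was sequenced by RNAseq from 3 Fnip1 null mice (Fnip1-/-; mice 8637, 9210 and 9121) and 2 wildtype mice (Fnip1+/+; mice 9055 and 9056), with 1 library per mouse. The labels give the controls as Fnip1+/+ and are followed here, while the study's text on the RNAseq names them Fnip1+/-. All mice had the C57BL6J background, were given no treatment and were between 11 and 18 weeks of age by the study's description. By the study's description the null allele came from ENU mutagenesis and is constitutive rather than specific to the kidney. The null mice represent a single mutant line. Levels are given below as normalized CPM (gene counts scaled by library size and TMM factor) in the mouse order 9055 and 9056 for wildtype and 8637, 9210 and 9121 for Fnip1 null.

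Collagen chains wind around each other into a stiff helix, and the chains present decide what is built. Fibrillar collagens (types I, III and V) form the tensile fibrils of the interstitium, and their accumulation is the hallmark of fibrosis in cystic and scarred kidneys. Type IV collagen forms the sheet-like network of basement membranes around tubules and in the glomerular filter, type VI forms beaded filaments next to cells, FACIT collagens decorate fibrils, and types XV and XVIII sit at the outer face of basement membranes.

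Gene counts per mouse ran from 15799114 to 19132145, and 3 counts in a mouse corresponded to between 0.158 and 0.186 CPM. Fnip1 itself was at 51.7 and 48.6 CPM in wildtype mice and at 21.0, 16.9 and 16.0 CPM in Fnip1 null mice, a log2 fold change of -1.48 (SE 0.14; adjusted p = 0.0313, edgeR's quasi-likelihood test), in the direction of the genotype labels. This call was lost without mouse 9210, 9055 or 9056 (adjusted p = 0.121, 0.218 and 0.510). Defining markers of proximal tubule were abundant in every library, with a sum of 5 markers of at least 7293 CPM. Xist, expressed from the inactive X chromosome of females, was at 314 CPM in Fnip1 null mouse 9121 and at most 1.41 CPM in the other 4 mice, and the Y-linked Ddx3y was at 0 in mouse 9121 alone. Fnip1 null mice 9210 and 9121 also carried adipocyte transcripts (Adipoq at 22.0 and 8.97 CPM, against at most 1.31 CPM in the other mice). Each value averages all cells of the tissue, so fewer cells of a type and less RNA per cell cannot be told apart.

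Several collagen genes lie next to each other in the genome, and the start regions of those that the results turn on are shown here from RefSeq on GRCm38.p6 (the mm10 build), 5′ to 3′ on the strand named. Capitals mark GGGCGG, the core letters of a GC box, on either strand (CCGCCC on the other). Col4a4 and Col4a3 point away from each other on chromosome 1 with 71 bases between their starts (chr1:82586850-82586920, shown on the minus strand, the strand of Col4a4). Col4a1 and Col4a2 point away from each other on chromosome 8 and share 22 bases of first exon (chr8:11312805-11312826, plus strand). The other windows end at the first base before the gene start: Col6a6, the collagen gene that passed the threshold (chr9:105828161-105828335, minus strand), Col19a1, the collagen gene with the largest fold difference (chr1:24587473-24587687, minus strand), and Col5a1, the collagen gene with the lowest adjusted p among those higher in Fnip1 null mice (chr2:27886175-27886424, plus strand).
Col4a4 to Col4a3: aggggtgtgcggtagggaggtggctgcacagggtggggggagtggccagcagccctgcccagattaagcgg
Col4a1 and Col4a2: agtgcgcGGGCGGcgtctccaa
Col6a6: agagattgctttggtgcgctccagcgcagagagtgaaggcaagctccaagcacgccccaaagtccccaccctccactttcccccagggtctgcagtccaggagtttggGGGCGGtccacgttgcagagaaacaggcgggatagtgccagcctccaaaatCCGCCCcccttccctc
Col19a1: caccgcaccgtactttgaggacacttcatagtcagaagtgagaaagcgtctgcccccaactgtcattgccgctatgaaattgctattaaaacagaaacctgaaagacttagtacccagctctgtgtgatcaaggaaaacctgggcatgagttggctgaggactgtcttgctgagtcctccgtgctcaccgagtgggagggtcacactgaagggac
Col5a1: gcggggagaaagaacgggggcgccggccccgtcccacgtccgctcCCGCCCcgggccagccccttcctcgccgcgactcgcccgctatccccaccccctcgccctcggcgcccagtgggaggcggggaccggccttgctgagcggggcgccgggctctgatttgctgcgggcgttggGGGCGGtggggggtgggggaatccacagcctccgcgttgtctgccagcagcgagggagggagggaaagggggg

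Among 38 windows of 250 bases upstream of 35 collagen genes that matched the RefSeq promoter table, 57.9% held GGGCGG on either strand, against 32.7% of 32851 windows of all genes. TATAAA, the letters of a TATA box, was in 13.2% of collagen windows and 12.4% of all windows, and CCAAT in 34.2% and 33.8%. A match is only a run of letters, and the collagen windows were not tested against the others.

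In wildtype kidney cortex, basement membrane collagens were the most abundant collagen transcripts per length. Per kb of exon, Col4a3 was at 30.8 ± 1.05 CPM, Col4a1 at 30.0 ± 5.22, Col18a1 at 27.7 ± 1.99, Col4a4 at 26.9 ± 1.03 and Col4a2 at 22.0 ± 4.23 CPM (SD, n = 2). The spread of Col4a1 took in the means of Col4a3, Col18a1 and Col4a4, while Col4a3 lay above Col4a4 in both mice (ratios of 1.14 and 1.15), and Col4a5 followed at 9.69 ± 0.30 CPM per kb. All other collagen genes were below 5 CPM per kb, with Col27a1 at 4.99, Col14a1 at 4.29, Col1a2 at 4.26, Col3a1 at 4.06 and Col1a1 at 3.11. Exon lengths hold the exons of all annotated transcripts, and per kb of coding sequence Col4a3 (60.6) and Col4a4 (56.5) stood above Col4a1 (43.7), Col18a1 (36.0) and Col4a2 (28.5). Col4a1 to Col4a5 and Col18a1 together held 74.5% and 78.3% of all collagen counts in wildtype mice and 71.5%, 62.3% and 65.2% in Fnip1 null mice. Collagen genes as a whole took 0.166% and 0.134% of gene counts in wildtype and 0.170%, 0.222% and 0.209% in Fnip1 null mice.

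Of the 32 collagen genes tested, 1 passed an FDR of 5% and a 2-fold change, Col6a6, which fell in Fnip1 null mice. None rose past this threshold by edgeR's quasi-likelihood test. Over all 13874 genes tested, 0.404% were called higher and 0.13% lower. Col6a6 was also the only collagen gene past the FDR alone, where 0.555% of all genes were higher and 0.18% lower. At an unadjusted p under 0.05, 14 collagen genes were higher and 4 lower, against 13.9% and 11.2% of all genes. In single mice, 14 of the 32 genes (43.8%) were higher in all 3 Fnip1 null mice than in both wildtype mice, against 22.9% of all genes, and 5 (15.6%) were lower in all 3, against 23% of all genes. The log2 fold change was positive for 25 of 32 collagen genes (78.1%; all genes 50.5%), with a median of 0.48 against 0.003 for all genes tested. With library size in place of TMM, the median of all genes moved to 0.17 and that of the collagen genes to 0.64, so the collagen genes stood 0.48 above all genes in both.

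**Figure D1:**
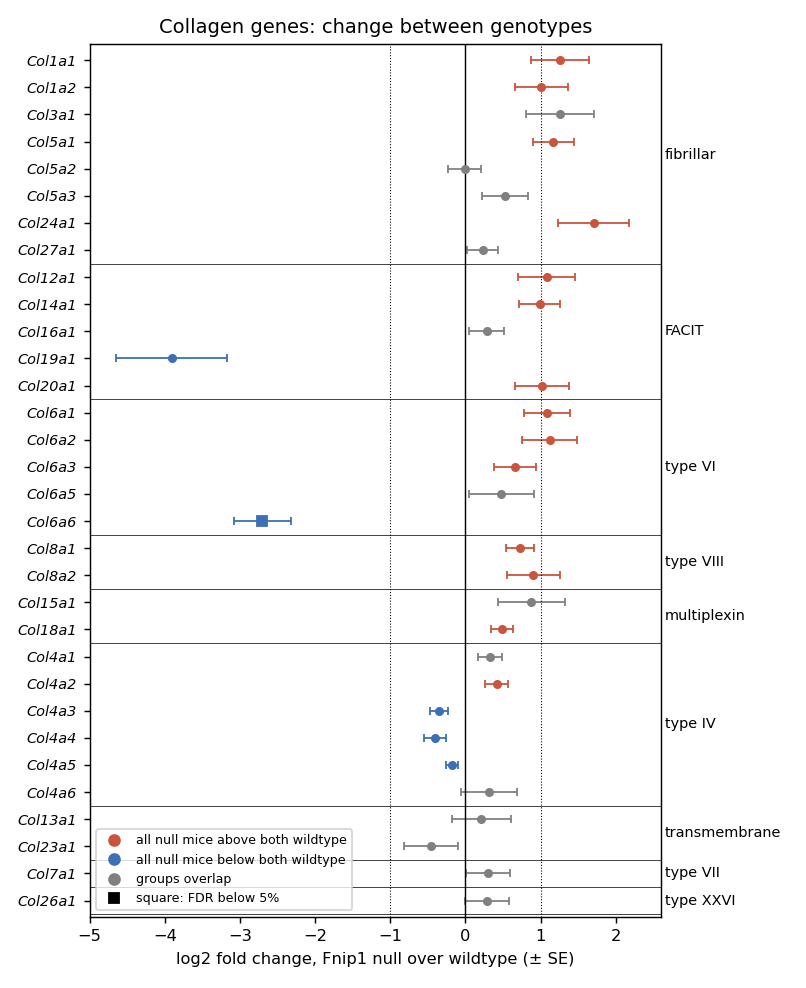
Log2 fold change of each of the 32 tested collagen genes (Fnip1 null over wildtype; bars are SE), grouped by collagen class, with dotted lines at a 2-fold change. Points of fibrillar and FACIT genes lie mostly near or right of 1, and type VI genes spread from -2.70 to 1.12. Type IV genes lie within 0.5 of 0, and Col6a6 and Col19a1 lie far to the left.

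The number of called genes depended on the test and on single libraries. With edgeR's exact test 5 collagen genes rose (Col1a1, Col5a1, Col6a1, Col6a2 and Col24a1) and 2 fell (Col6a6 and Col19a1), against 3.03% and 1.04% of all genes, and its likelihood ratio test called the same 7 genes (background 3.44% and 1.09%). DESeq2 called these 7 and Col1a2, Col3a1 and Col12a1 as well, 8 higher and 2 lower, against 2.64% and 0.872% of all genes. The quasi-likelihood test without Fnip1 null mouse 8637 called the 10 genes of DESeq2 and Col6a4, which fell, against a background of 4.67% higher and 2.04% lower. Relative to the wildtype mean, the median log2 ratio of the tested collagen genes was 0.31 in mouse 8637, 0.53 in mouse 9210 and 0.56 in mouse 9121, and it was 0.16 and -0.18 in wildtype mice 9055 and 9056. The wildtype mice differed as well. Mouse 9056 was the lowest of all 5 mice in 19 of 32 collagen genes (59.4%; all genes 25.7%), and mouse 9210 the highest in 15 (46.9%; all genes 19.3%). Without mouse 9210, 9055 or 9056 no collagen gene, and no gene at all, passed the threshold.

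**Figure D2:**
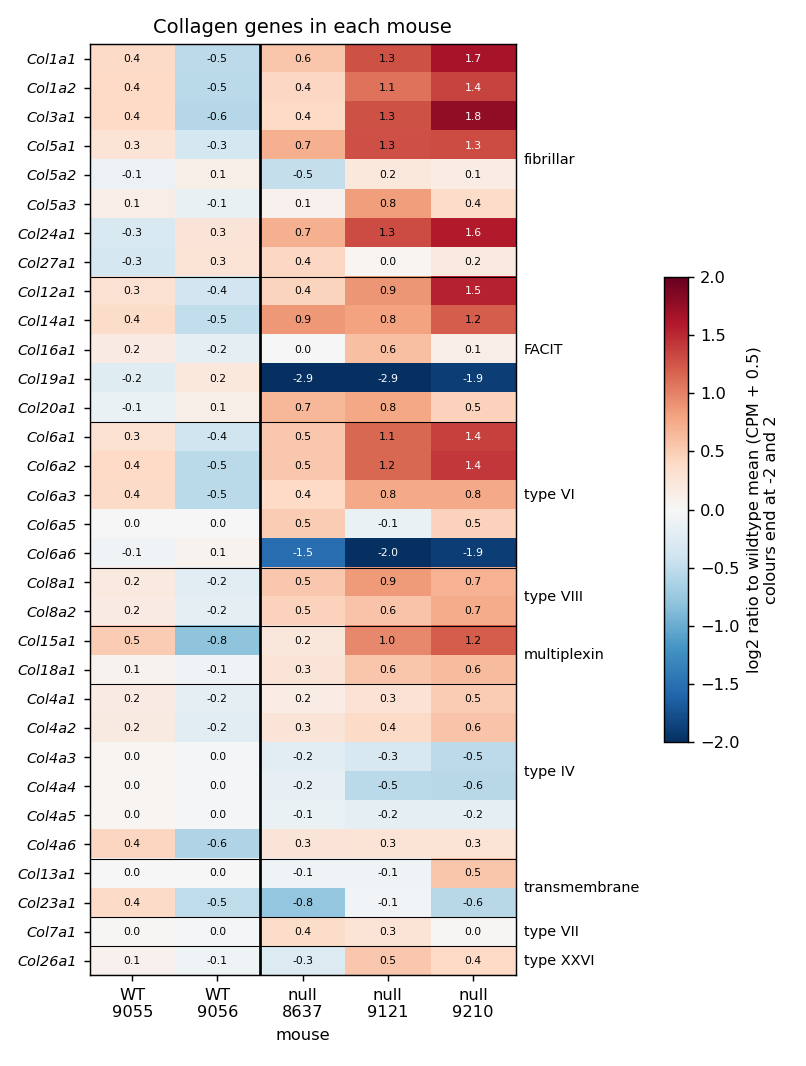
Log2 ratio of each tested collagen gene in each mouse to the mean of the wildtype mice, on CPM + 0.5; rows are genes by class, columns are mice and each cell holds its value. Col1a1, Col1a2, Col3a1, Col5a1, Col6a1, Col6a2 and Col6a3 are red in mice 9210 and 9121 and paler in mouse 8637, with mouse 9056 below mouse 9055, and Col6a6 and Col19a1 are blue in all 3 Fnip1 null mice.

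The fibrillar collagens had the highest median among the larger classes: the log2 fold change was above 0 in 7 of 8 tested genes, with a median of 1.09 and 4 genes higher in every Fnip1 null mouse, against 22.9% of all genes. None passed the FDR in edgeR's quasi-likelihood test, with adjusted p from 0.0905 upward and 5 genes higher at an unadjusted p under 0.05, against 13.9% of all genes. Col1a1, one of the chains of type I collagen, was at 26.8 and 14.1 CPM in wildtype mice and at 30.4, 65.3 and 50.3 CPM in Fnip1 null mice. All null mice lay above both wildtype mice, although mouse 8637 exceeded wildtype mouse 9055 by little, and the log2 fold change was 1.25 (SE 0.39, adjusted p = 0.129). Col1a2, its partner chain, was at 69.8 and 36.2 CPM in wildtype and 71.1, 136 and 113 CPM in Fnip1 null mice (log2 fold change 1.01, SE 0.36, adjusted p = 0.158). Col3a1, the chain of type III collagen found with type I in interstitial fibrils, was at 53.0 and 26.8 CPM in wildtype and 52.7, 137 and 97.2 CPM in Fnip1 null mice. Here mouse 8637 lay just below mouse 9055, so the groups overlapped, and the log2 fold change of 1.26 (SE 0.45) had an adjusted p of 0.161. Leaving out mouse 8637 gave log2 fold changes of 1.5, 1.23 and 1.56 for Col1a1, Col1a2 and Col3a1, with adjusted p of 0.0237, 0.0373 and 0.0274. Leaving out wildtype mouse 9056 instead gave 0.86, 0.61 and 0.85, with adjusted p of 0.595, 0.624 and 0.63, and leaving out mouse 9055 gave 1.78, 1.56 and 1.83, with adjusted p of 0.230, 0.230 and 0.245.

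Type V collagen, which is built into type I fibrils and limits their width, had chains that differed from each other. Col5a1 was at 12.7 and 8.0 CPM in wildtype mice and at 17.2, 26.3 and 26.0 CPM in Fnip1 null mice, with no overlap (log2 fold change 1.17, SE 0.27, adjusted p = 0.0905). Col5a2 was at 30.8 and 36.3 CPM in wildtype and 24.0, 37.1 and 38.8 CPM in Fnip1 null mice, and its log2 fold change was -0.01 (SE 0.22). The ratio of Col5a1 to Col5a2 per kb was therefore 0.465 and 0.249 in wildtype mice and 0.810, 0.802 and 0.757 in Fnip1 null mice, higher in each null mouse, with no test of the ratio. Col5a2 lies tail to tail with Col3a1 on chromosome 1, 24614 bases apart, so these neighbours had different values. Col5a3 was low, with means of 3.14 ± 0.48 CPM in wildtype (SD, n = 2) and 4.51 ± 1.33 CPM in Fnip1 null mice (SD, n = 3), and the groups overlapped. Col24a1, a minor fibrillar collagen, was near the limit of counting at 0.50 and 0.97 CPM in wildtype (8 and 17 counts) and 1.53, 3.21 and 2.53 CPM in Fnip1 null mice (26, 54 and 48 counts). Its log2 fold change of 1.70 (SE 0.47, adjusted p = 0.11) was the highest of all tested collagen genes. Col27a1, a fibrillar gene of cartilage and other tissues, did not separate the genotypes (64.9 ± 19.9 and 76.1 ± 10.2 CPM in wildtype and Fnip1 null; SD, n = 2 and n = 3).

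**Figure D3:**
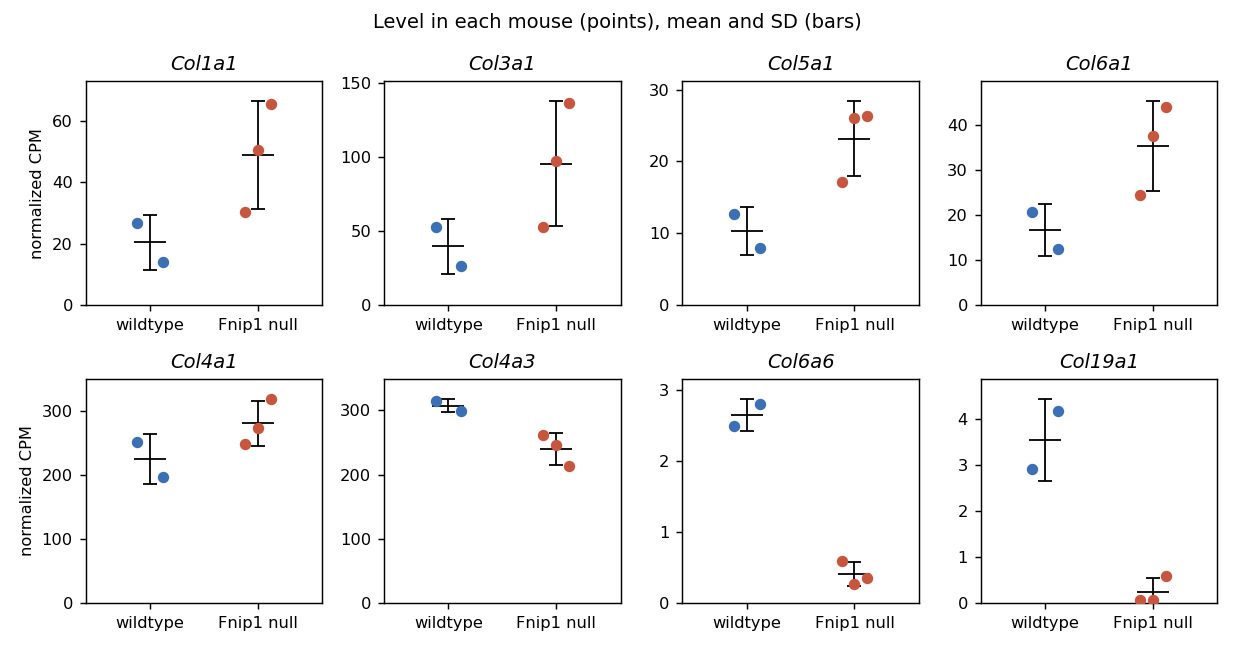
Normalized CPM of 8 collagen genes in each mouse; points are mice (null mice from left to right: 8637, 9121 and 9210), with the mean and SD of each genotype as bars. Col1a1, Col5a1 and Col6a1 are higher in all 3 Fnip1 null mice, Col3a1 and Col4a1 overlap, and Col4a3, Col6a6 and Col19a1 are lower in all 3.

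Type VI collagen held both directions. Its main chains Col6a1, Col6a2 and Col6a3 were higher in each Fnip1 null mouse than in both wildtype mice (all genes 22.9%). None of these chains passed the FDR by the quasi-likelihood test. Col6a1 was at 20.8 and 12.6 CPM in wildtype and 24.4, 43.9 and 37.6 CPM in Fnip1 null mice (log2 fold change 1.08, SE 0.31, adjusted p = 0.116). Col6a2 had a log2 fold change of 1.12 (SE 0.36, adjusted p = 0.138), from 13.1 and 6.63 CPM to 14.6, 27.1 and 22.5 CPM. Col6a3 had a smaller one of 0.66 (SE 0.28, adjusted p = 0.205), from 25.6 and 13.3 CPM to 25.9, 33.2 and 33.3 CPM. Col6a1 and Col6a2 lie on the same strand of chromosome 10, and their ratio per kb stayed between 3.02 and 3.61 in all 5 mice. In the 9 genes of types I, III, V and VI just described, leaving out Col24a1, Col27a1 and the minor type VI chains, mouse 9056 was lowest in 8, mouse 9210 highest in 6 and mouse 9121 highest in 3.

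Col6a6, one of the minor chains thought to take the place of Col6a3 in some tissues, fell in Fnip1 null mice. It lies at chr9:105687809-105828160 on the minus strand (GENCODE M21, GRCm38). It had 40 and 49 counts in wildtype mice (2.48 and 2.80 CPM) and 10, 6 and 5 counts in Fnip1 null mice (0.59, 0.36 and 0.26 CPM). The groups were thus far apart, at low depth, and the gene was tested only because mouse 8637 just reached the minimum of 10 counts. The log2 fold change was -2.70 (SE 0.38, adjusted p = 0.0479, edgeR's quasi-likelihood test). The adjusted p was 2.59e-04 with DESeq2 and 1.77e-07 with the exact test, while it was 0.0506 with library size in place of TMM and 0.0503 with upper quartile factors. Leaving out mouse 9210, 9055 or 9056 raised it to 0.199, 0.218 and 0.529. The ratio of Col6a6 to Col6a3 per kb was 0.126 and 0.274 in wildtype and 0.0297, 0.0140 and 0.0103 in Fnip1 null mice. Its neighbours on chromosome 9 are minor chains too: Col6a4 was not tested (12 and 11 counts in wildtype, 9, 0 and 1 in Fnip1 null mice), and Col6a5 overlapped between the genotypes with 11 and 12 counts in wildtype and 20, 19 and 11 in Fnip1 null mice. How many reads these related genes share was not measured, so their counts may be less certain than those of the main chains.

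Type IV collagen split by chain, within a narrow range: 3 of 6 genes were positive and 3 negative, and the median log2 fold change was 0.07. None passed the FDR by the quasi-likelihood test, with 1 gene higher and 2 lower at an unadjusted p under 0.05 (all genes 13.9% and 11.2%). Col4a1 and Col4a2 encode the network found in nearly all basement membranes. Col4a1 was at 252 and 196 CPM in wildtype and 249, 318 and 273 CPM in Fnip1 null mice (log2 fold change 0.32, SE 0.16, adjusted p = 0.26), and mouse 8637 lay between the wildtype mice. Col4a2 was at 166 and 126 CPM in wildtype and 175, 217 and 190 CPM in Fnip1 null mice, with no overlap (log2 fold change 0.41, SE 0.16, adjusted p = 0.174). Col4a3, Col4a4 and Col4a5 encode the network of the mature glomerular filter and are the genes of Alport syndrome. In TMM-normalized CPM all 3 were lower in each Fnip1 null mouse, as were 23% of all genes. Col4a3 was at 315 and 300 CPM in wildtype and 262, 213 and 245 CPM in Fnip1 null mice (log2 fold change -0.36, SE 0.12, adjusted p = 0.147). Col4a4 was at 293 and 277 CPM in wildtype and 256, 194 and 197 CPM in Fnip1 null mice (log2 fold change -0.40, SE 0.15, adjusted p = 0.165). Without mouse 8637, Col4a3 and Col4a4 passed the FDR alone (adjusted p = 0.0403 and 0.0136), at changes of less than 2-fold. In that setting 10 collagen genes were higher and 5 lower past the FDR alone, against 9.87% and 9.99% of all genes. Col4a5 differed least, at 66.6 and 63.7 CPM in wildtype and 59.1, 56.5 and 57.4 CPM in Fnip1 null mice (log2 fold change -0.18, SE 0.08, adjusted p = 0.234). With library size in place of TMM, the log2 fold changes of Col4a3, Col4a4 and Col4a5 were -0.20, -0.25 and -0.015, so that of Col4a5 depended on the normalization. Col4a6, a chain of smooth muscle and of some epithelial basement membranes, was low and overlapped between the genotypes (2.88 ± 1.64 CPM in wildtype, SD, n = 2; 3.56 ± 0.03 CPM in Fnip1 null, SD, n = 3).

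The balance of the type IV networks differed between the genotypes in single mice. Per kb, the ratio of Col4a3 and Col4a4 to Col4a1 and Col4a2 was 1.01 and 1.24 in wildtype and 0.843, 0.525 and 0.661 in Fnip1 null mice, lower in each null mouse, and it was not tested. The ratio of Col4a5 to Col4a1 and Col4a2 was 0.169 and 0.209 in wildtype and 0.147, 0.111 and 0.131 in Fnip1 null mice. The ratio of Col4a3 to Col4a4, which share a start region, overlapped between the genotypes, from 1.09 to 1.33. Genes that start next to each other had the same sign of difference in the pairs Col4a1 with Col4a2 and Col4a3 with Col4a4, and opposite signs in Col4a5 and Col4a6, whose starts lie 1308 bases apart on chromosome X. The last pair was not stable: Col4a6 had a log2 fold change of -0.18 without mouse 9056, and Col4a5 had -0.015 with library size only. Podocytes, the cells that line the glomerular filter, are a main source of Col4a3, Col4a4 and Col4a5, and their markers stood in the opposite direction. All 4 podocyte markers examined were higher in each Fnip1 null mouse (all genes 22.9%), their sum being 304 and 292 CPM in wildtype and 492, 585 and 524 CPM in Fnip1 null mice. Nphs1 and Synpo, which encode nephrin and synaptopodin, passed the FDR by the quasi-likelihood test, with log2 fold changes of 1.08 and 0.90. The summed proximal tubule markers were lower in each null mouse, at 9290, 7939 and 7293 CPM against at least 10146 CPM in wildtype. The 5 markers did not go one way, and Cubn overlapped. Slc34a1, Lrp2 and Aqp1 were lower and Slc5a2 higher in each null mouse (all genes 23% lower and 22.9% higher). The part of either cell type in the type IV values was not tested.

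**Figure D4:**
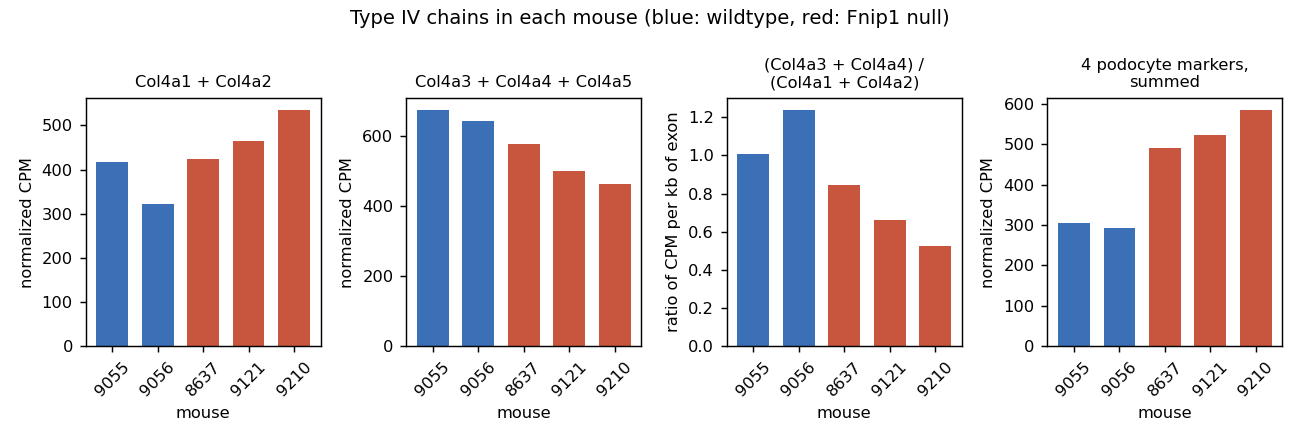
Bars give, for each mouse, the summed CPM of Col4a1 and Col4a2, the summed CPM of Col4a3, Col4a4 and Col4a5, their ratio per kb of exon (without Col4a5), and the summed CPM of 4 podocyte markers. Col4a3 to Col4a5 and the ratio are lower, and the podocyte markers higher, in all 3 Fnip1 null mice.

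The multiplexins Col15a1 and Col18a1 are the collagens of the outer basement membrane, and their C-terminal fragments are the angiogenesis inhibitors restin and endostatin. Col18a1 was at 205 and 185 CPM in wildtype and 232, 301 and 286 CPM in Fnip1 null mice, higher in each null mouse (log2 fold change 0.49, SE 0.14, adjusted p = 0.118). Col15a1 was at 33.0 and 13.0 CPM in wildtype and 27.0, 53.9 and 45.5 CPM in Fnip1 null mice. The wildtype mice alone differed widely here, mouse 8637 lay between them, and the log2 fold change of 0.88 (SE 0.44) had an adjusted p of 0.267 by the quasi-likelihood test.

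FACIT collagens, which bind to the surface of fibrils, also held both directions: 4 of 5 tested genes had positive log2 fold changes. Of these, 3 were higher in all null mice (all genes 22.9%). Col12a1, a partner of type I fibrils in tissue under load, was at 9.56 and 5.77 CPM in wildtype and 10.6, 23.3 and 14.6 CPM in Fnip1 null mice (log2 fold change 1.08, SE 0.38, adjusted p = 0.157). Col14a1, a related fibril-binding collagen, was at 39.0 and 21.2 CPM in wildtype and 55.5, 70.2 and 52.8 CPM in Fnip1 null mice (log2 fold change 0.98, adjusted p = 0.109). Col20a1 was higher in each null mouse at a very low level, with 8 and 12 counts in wildtype and 21, 17 and 26 counts in Fnip1 null mice (log2 fold change 1.02, adjusted p = 0.159). Col16a1 overlapped between the genotypes (11.6 ± 2.02 and 14.1 ± 3.38 CPM in wildtype and Fnip1 null; SD, n = 2 and n = 3).

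Col19a1 had the largest fold difference of all collagen genes, and did not pass the threshold. This FACIT collagen of vascular, neuronal and mesenchymal basement membrane zones lies at chr1:24261890-24587472 on the minus strand, tail to tail with Col9a1. It had 47 and 73 counts in wildtype mice (2.92 and 4.17 CPM) and 1, 10 and 1 counts in Fnip1 null mice (0.06, 0.59 and 0.05 CPM). The gene was tested only because mouse 9210 just reached the minimum of 10 counts. The groups were far apart, but the null mice differed from each other around the level that 3 counts mark, and the fitted log2 fold change of -3.91 (SE 0.74) had an adjusted p of 0.0688 by the quasi-likelihood test. It was 4.03e-04 with DESeq2, 5.53e-05 with the exact test and 0.0247 without mouse 8637. Without mouse 9210, 9055 or 9056 it was 0.121, 0.218 and 0.543.

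Type VIII collagen, a network collagen of vessel walls and glomeruli, was higher in each Fnip1 null mouse for both chains (all genes 22.9%). Neither chain passed the FDR by the quasi-likelihood test. Col8a1 was at 11.1 and 8.12 CPM in wildtype and 14.1, 15.8 and 17.7 CPM in Fnip1 null mice (log2 fold change 0.73, SE 0.19, adjusted p = 0.102). Col8a2 had 14 and 10 counts in wildtype and 20, 26 and 25 in Fnip1 null mice (log2 fold change 0.90, SE 0.36, adjusted p = 0.186). The transmembrane collagens Col13a1 and Col23a1, the anchoring fibril collagen Col7a1 and Col26a1 overlapped between the genotypes, with log2 fold changes from -0.46 (Col23a1) to 0.30 (Col7a1).

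The 12 genes not tested were Col2a1, Col6a4, Col9a1, Col9a2, Col9a3, Col10a1, Col11a1, Col11a2, Col17a1, Col22a1, Col25a1 and Col28a1. Most are known from cartilage, skin or nerve. Except for Col6a4 and Col11a2, none had more than 7 counts in a mouse. Col11a2 had 2 and 9 counts in wildtype and 13, 9 and 13 in Fnip1 null mice. Col9a1 had no count in any mouse, which at this depth allows a level of up to 0.158 to 0.186 CPM, the value of 3 counts.

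Genes that make, place, bind and remove collagen were examined as lists. Of 60 such genes tested, none passed the FDR by edgeR's quasi-likelihood test, and 24 were higher (40%; all genes 13.9%) and 8 lower (13.3%; all genes 11.2%) at an unadjusted p under 0.05. At a 2-fold change the exact test called 7, the likelihood ratio test and DESeq2 8 each, and the quasi-likelihood test without mouse 8637 called 11, all higher, where 3.03%, 3.44%, 2.64% and 4.67% of all genes were called higher. Enzymes and chaperones that modify and fold the chains had a median log2 fold change of 0.12, with 5 of 19 higher and 5 lower in all null mice, near the shares of all genes (22.9% and 23%). By the rule for named genes, P3h4 and Fkbp10, which help hydroxylate and fold collagen, had the largest differences in the list, with log2 fold changes of 0.75 and 0.73 (adjusted p = 0.247 and 0.283).

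Genes of secretion, propeptide removal and cross-linking had a higher median of 0.67. In all null mice 10 of 17 were higher (all genes 22.9%) and 4 lower, the latter at about the 23% of all genes. The 4 lower genes were Mia2, Mia3, Ctage5 and Sec23a. The enzymes that cross-link collagen, Lox and Loxl1 to Loxl4, were each higher in all null mice and were picked out after their values were seen. Lox was at 2.11 and 1.54 CPM in wildtype and 2.89, 7.31 and 4.80 CPM in Fnip1 null mice (log2 fold change 1.45, SE 0.44, adjusted p = 0.126). Adamts2, which cuts the N-terminal propeptide, had a log2 fold change of 1.26 (SE 0.48, adjusted p = 0.176). Loxl1, named afterwards for the lowest adjusted p in these lists (0.0709), was at 16.4 and 11.1 CPM in wildtype and 24.7, 35.1 and 31.2 CPM in Fnip1 null mice.

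Collagen receptors had a median log2 fold change of 0.07, with 4 of 7 higher in all null mice (all genes 22.9%). Among these 4, Itgb1 had a log2 fold change of only 0.07. Lair1, an inhibitory collagen receptor of leukocytes, had the largest value at 1.64 (SE 0.53, adjusted p = 0.135), and Mrc2, which takes up collagen fragments, had 0.71 (SE 0.22, adjusted p = 0.131). Genes of collagen breakdown and its inhibitors had a median of 1.09, with 5 of 7 higher in all null mice and none lower (all genes 22.9% and 23%). Mmp14, a collagenase of the cell surface, was at 9.75 and 8.0 CPM in wildtype and 11.1, 25.4 and 26.0 CPM in Fnip1 null mice (log2 fold change 1.23, SE 0.38, adjusted p = 0.129), and Ctsk, which encodes the collagen-cutting cathepsin K, had 1.14 (SE 0.36, adjusted p = 0.135). Proteoglycans and glycoproteins bound to fibrils had a median of 0.84, with 6 of 10 higher in all null mice (all genes 22.9%). Fn1, encoding fibronectin, on which collagen fibrils assemble, was at 33.6 and 17.7 CPM in wildtype and 43.6, 77.0 and 68.3 CPM in Fnip1 null mice (log2 fold change 1.3, SE 0.34, adjusted p = 0.105), and Lum, encoding lumican, had 1.13 (SE 0.49, adjusted p = 0.216).

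Markers of stromal cells, which make most fibrillar collagen, were examined as well. All 6 fibroblast markers had positive log2 fold changes, and none passed the FDR by the quasi-likelihood test. In all null mice 5 were higher (all genes 22.9%), and 4 were higher at an unadjusted p under 0.05 (all genes 13.9%). Among these markers, Dcn and Lum are also in the list of fibril-bound proteins. The sum of the 6 was 243 and 152 CPM in wildtype and 241, 386 and 384 CPM in Fnip1 null mice. Mouse 9056 was thus the lowest in this sum, and mouse 8637 was close to mouse 9055. The sum of 6 smooth muscle and pericyte markers was 101 and 87.7 CPM in wildtype and 113, 204 and 149 CPM in Fnip1 null mice, and that of 6 endothelial markers 272 and 156 CPM and 294, 329 and 381 CPM. In each of these lists 3 markers were higher in all null mice (all genes 22.9%). Myh11, Cnn1 and Des overlapped between the genotypes in the first list, and Pecam1, Cdh5 and Tek in the other. For 5 adipocyte markers the sum was 34.0 and 28.9 CPM in wildtype and 50.5, 196 and 112 CPM in Fnip1 null mice. Fabp4 held most of this sum in wildtype mice (31.8 and 25.0 CPM) and in mouse 8637 (48.4 CPM). Adipoq, Plin1 and Cidec overlapped between the genotypes, with mouse 8637 at 0.59, 0.12 and 1.24 CPM. The 4 urothelial markers summed to 10.2 CPM in mouse 9121 and at most 1.6 CPM elsewhere. The sum of 5 collecting duct markers was 498 and 513 CPM in wildtype and 619, 903 and 806 CPM in Fnip1 null mice. Among these markers 3 were higher and 1 lower in each null mouse (all genes 22.9% and 23%). Of 8 leukocyte markers 5 were higher in all null mice and 2 were lower (all genes 22.9% and 23%), and their sums overlapped. The part of these cells in the collagen values was not tested. In mouse 8637 alone against both wildtype mice, none of which had Adipoq above 1.31 CPM, the median log2 fold change of the collagen genes was 0.36. In this setting the log2 fold changes of Col1a1, Col1a2, Col3a1 and Col15a1 were 0.58, 0.43, 0.41 and 0.24, against 1.25, 1.01, 1.26 and 0.88 with all mice. Not every named collagen gene shrank. Col20a1, Col6a5, Col5a2 and Col19a1 were at 1.05, 0.78, -0.48 and -5.74, against 1.02, 0.48, -0.01 and -3.91 with all mice. Col4a6 barely moved, at 0.309 against 0.314. The fit assumes that the lone null mouse varies like the wildtype mice, so these are given as values with no test.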

How the data were processed

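The authors isolated RNA from flash-frozen kidney cortex, sequenced it on an Illumina instrument, removed reads of low quality, aligned them with TopHat2 2.1.0 to mm10 and assigned them to gene symbols with HTSeq 0.6.1. The deposited values are these raw counts, not normalized. The annotation version and the strand setting are not given in the sources used here, so overlapping genes may share reads. HTSeq's summary lines, which name no gene (39.0% to 42.8% of each file's total), were left out.

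The tools were edgeR 4.0.16 and R 4.3.3. A gene with fewer than 10 counts in more than 2 mice was left out. With 2 wildtype mice, a gene was thus tested only if a null mouse had at least 10 counts, whatever its wildtype level. TMM factors (0.914 to 1.09) were applied, and genotypes were compared by the quasi-likelihood test of edgeR with default settings. Its p-values were adjusted by Benjamini-Hochberg over all 13874 genes tested. A call needed an FDR of 5% and a 2-fold change, as in the study's methods. The SE is the log2 fold change divided by the root of the F statistic. Lengths and gene coordinates are from GENCODE M21. The tests were also run on simulated data, with outcomes not reported here.

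The mice are separate animals, and each pair of libraries differed by more than sampling noise (chi-square of at least 9.26 per gene; correlation within genotype 0.974 to 0.993). Mouse 8637 correlated with wildtype mice 9055 and 9056 at 0.988 and 0.986, and with null mice 9210 and 9121 at 0.987 and 0.974. Counting intervals and the 3-count level cover counting error only. The collagen genes, pathway lists and marker lists were chosen with earlier results of these data known, so no list was tested as a set. Named with values were collagen genes past the FDR, those with a 2-fold change and no overlap, all tested chains of types I, III, IV, V, VI, XV and XVIII, the 2 genes of each pathway list with the largest log2 fold change and a mean of at least 1 CPM, and Fnip1. Other named genes were chosen after their values were seen. Alternatives were other tests (exact, likelihood ratio, DESeq2 1.42.0, robust), normalizations, filters and thresholds, and leaving out each mouse. One gene of the marker lists is not reported here.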

Additional observations from a re-analysis of the deposited data

How the results depend on the processing

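The collagen genes past the threshold (1 in the reported fit) numbered 7 by the exact and 7 by the likelihood ratio test of edgeR, 10 by DESeq2, 3 at an FDR of 10%, and 0 with library size only and 0 with upper quartile factors; with 1 mouse left out they ranged from 0 to 11. The pathway genes (0) numbered 7, 8 and 8 with the exact test, likelihood ratio test and DESeq2, 2 at an FDR of 10% and from 0 to 11 with 1 mouse left out. All genes past the threshold (74) numbered 565, 628 and 487 in the same 3 tests, 346 at an FDR of 10%, 145 with no filter, 182 without both null mice that had adipocyte transcripts (where the lone null mouse is assumed to vary like the wildtype mice), and from 0 to 948 with 1 mouse left out. The cause of these differences was not tested. The count of 11 collagen genes and of 948 genes came without mouse 8637, and the counts of 0 genes without mouse 9210, 9055 or 9056; without a wildtype mouse, the lone one is assumed to vary like the null mice. Without both mice with adipocyte transcripts, the log2 fold changes of Col6a6 and Col19a1 were -2.15 and -5.74, given as values only.

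The median log2 fold change of the collagen genes (0.48) was positive in every setting run, at 0.64 with library size only and from 0.37 to 0.62 with 1 mouse left out. The count of collagen genes whose groups do not overlap (19) was between 19 and 28, but groups of fewer mice separate more often: among all genes, those higher in all null mice were 22.9% in the reported fit and up to 37.9% with fewer mice. Of 367 values of the 23 named collagen genes under the alternatives, 5 changed sign. Col4a6 had a log2 fold change of -0.18 without mouse 9056 (range -0.18 to 1.05 with 1 mouse left out), and Col5a2 had 0.17 with library size only and 0.060 with upper quartile factors (range -0.14 to 0.18 with 1 mouse left out). Another 31 values moved past the threshold and 6, all of Col6a6, moved out of it, as did 3 of Fnip1. Lengths from coding sequence in place of exons raised the wildtype level per kb of Col4a3 from 30.8 to 60.6 CPM. Levels near 3 counts, such as those of Col19a1 in null mice, are limited by depth. The legacy quasi-likelihood method proved to be edgeR's default here, and the other method, added after seeing the data, called 73 genes and the same collagen gene. Coding lengths came from the annotation, because the planned protein table was not used here. No paired analysis was possible because the labels give no litter or other pairing of the mice.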
